A study of Mus musculus with 10 samples.

Results

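BC156060, AK138758, AK138450, DV062790 and AI507368 are 5 non-coding transcripts of the mouse that lay higher in brown fat than in white fat. Each is carried by 1 of the 59709 probes of an Arraystar mouse long non-coding RNA microarray, and the 5 were picked by the accession at the start of the probe or transcript name. RNA was measured on 10 arrays, 1 per sample. The tissues came from wild-type mice on chow, injected daily into the peritoneum for 7 days. The groups were white fat from mice given CL316,243 (CL) at 1 mg/kg (2 arrays), brown fat from mice given saline (2 arrays) and white fat from mice given saline (2 arrays). Wild-type brown adipocytes in culture were taken at days 0, 3, 5 and 7 of differentiation, a single array for each day. The white fat depot, the age, sex and strain of the mice, the number of mice behind an array and the origin of the cultured cells are not stated in the labels used here. Replicates are called biological in the labels, without saying whether each was 1 mouse, so a p-value measures the spread between these arrays only.

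Brown fat burns lipid to make heat, whereas white fat mainly stores it, and agonists of the β3-adrenergic receptor such as CL switch on heat production in brown fat and can bring brown-like cells into white depots. Long non-coding RNAs are transcripts without a recognised protein product, and several are known to act in the gene programme of brown adipocytes. Accessions beginning with BC belong to full-length cDNAs of the Mammalian Gene Collection, those beginning with AK mostly to full-length cDNAs of the RIKEN collection in mouse, and those beginning with DV or AI to expressed sequence tags, which are single reads of a cDNA end. No function is annotated for any of the 5 in the files. In the RefSeq table (assembly GRCm38.p6, used for names only), 0 of the 5 accessions were found, so their genome position, exon structure and sequence were not analysed here.

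Levels are log2 processed signals from which the 75th percentile of the same array was subtracted, so a value of 0 is that percentile. A probe was counted as measured on an array where the scanner software marked it well above background. Between 55.1% and 78.3% of probes carried that mark on an array, and so did 10.9% to 36.4% of negative control spots. Replicate arrays correlated at r = 0.939 in CL-treated white fat, 0.980 in brown fat and 0.983 in saline white fat across the 43525 probes tested in the tissues. Each CL array correlated with the saline white fat arrays at r of 0.951 to 0.977. The CL arrays were thus less alike than CL and saline arrays, which limits every comparison that uses them. The 6 tissue arrays were read in 1 scan and the 4 culture arrays in another, so culture and scan cannot be told apart. On the tissue slide the CL arrays lay in column 2 and the saline arrays in column 1, and brown fat lay in rows 1 and 2 of that column and white fat in rows 3 and 4, so neither treatment nor tissue can be told apart from slide position. The labelled tissues could hardly be checked by markers, since 2 of 65 listed marker genes were measured under their name. One of them was Gk, glycerol kinase, which returns glycerol to lipid synthesis in brown fat, at 0.59 and 0.80 in brown fat against -1.79 and -1.67 in saline white fat. Gk stood at -1.1 on both CL arrays, and at -0.27, -0.84, -0.94 and -0.41 on culture days 0, 3, 5 and 7. It was thus not above its day 0 value on any later day, and differentiation of the cultured cells was not otherwise checked by brown fat or adipocyte markers.

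The 5 transcripts were chosen for the difference between brown and saline white fat, which is therefore described here and not tested. They hold the top 5 places in that difference among the 897 probes with a transcript accession that were tested in the tissues. AI507368, at 3.69, was the nearest inside, and AI427689, at 3.38 and not well above background in saline white fat, was the nearest outside. Both brown fat arrays lay above both saline white fat arrays for 5 of the 5, as for 32.1% of all tested probes, and the choice of the transcripts fixes that count. Since whole tissue was measured, fewer cells of a type and less RNA per cell cannot be told apart in any of these differences.

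BC156060 had the widest difference of the 5. It stood at 2.23 and 2.96 in brown fat, against -5.65 and -5.25 in saline white fat, where neither array marked it well above background. Before scaling, its signal was 1001 and 2105 in brown fat against 6.15 and 9.01 in saline white fat. The white fat signals lay below the 95th percentile of the negative control spots of their arrays (77.3 and 115), and the brown fat signals far above it (114 on each array). With that percentile as the floor on each white fat array, a choice made after seeing the data, the brown fat level of BC156060 (mean 2.59 ± 0.51, SD, n = 2) was at least 20.9-fold higher. The size of the fold depended on the floor, since it was 112 with the lowest signal marked well above background as the floor. It was 27.1 with normexp background correction, used here with a fixed offset of 50 added to every corrected signal.

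**Figure D1:**
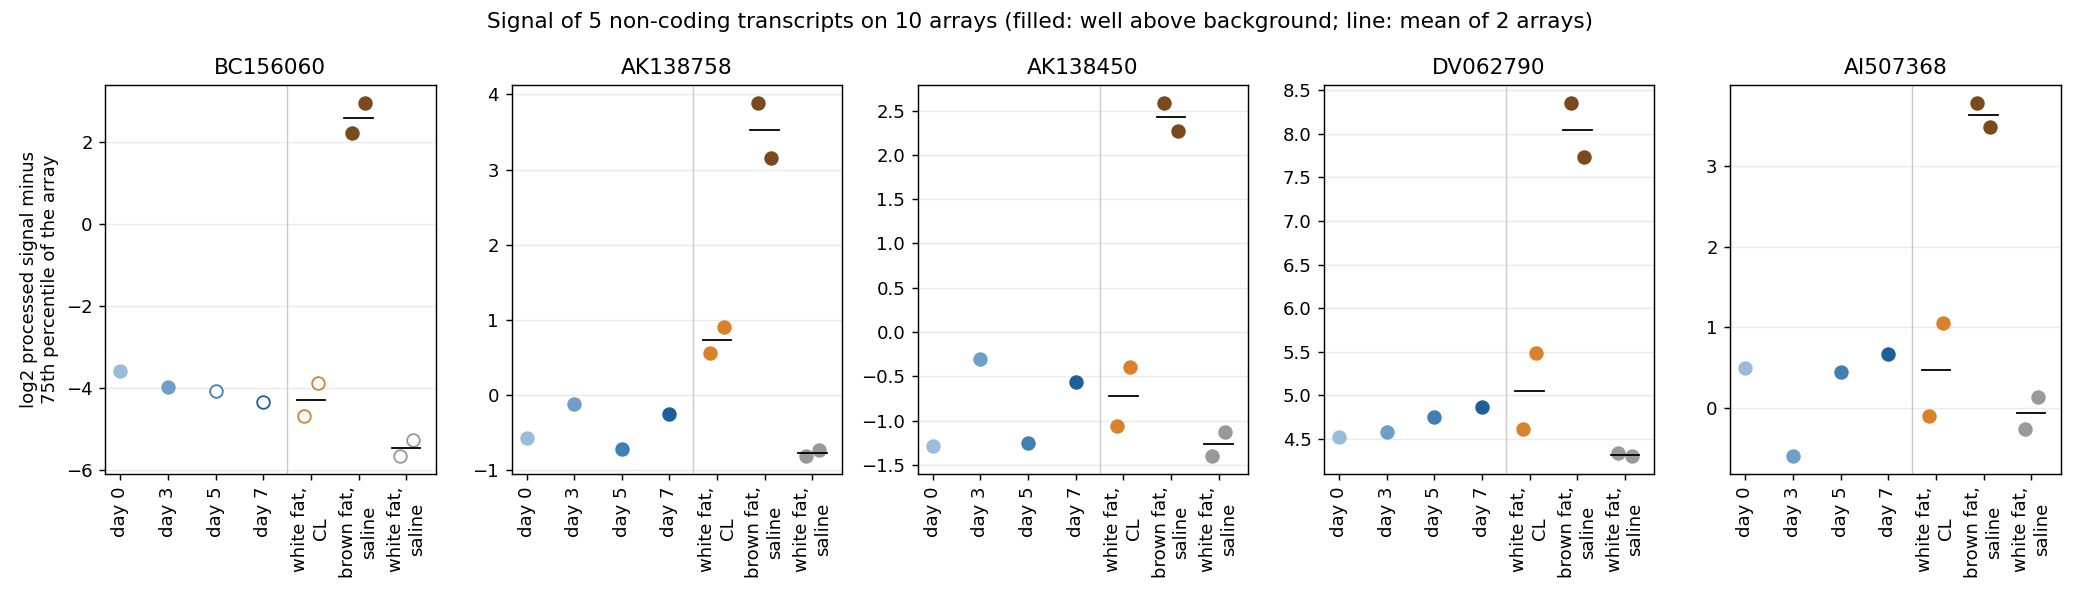
Level of each transcript on the 10 arrays, as scaled log2 signal (vertical axis, 0 is the 75th percentile on that array), with cultured brown adipocytes at days 0 to 7, then white fat after CL, brown fat after saline and white fat after saline. Points are arrays, open points were not well above background and lines are means of 2 arrays. For each of the 5 transcripts the brown fat points lie above all 8 other arrays, and the vertical scales differ between panels. The choice of the transcripts favoured that order, and its share over all probes was not counted.

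The other 4 transcripts were well above background on all 10 arrays. AK138758 stood at 3.89 and 3.15 in brown fat, against -0.81 and -0.73 in saline white fat, a difference of 4.29 (SE 0.40) or 19.5-fold. AK138450 stood at 2.59 and 2.27 in brown fat against -1.40 and -1.13 in saline white fat, a difference of 3.70 (SE 0.39) or 13-fold. The widest gap between replicates of either transcript was 0.74, between the brown fat arrays for AK138758. DV062790, with a signal of 69893 and 57963 in brown fat against 6221 and 6755 in saline white fat, stood at 8.36 and 7.74 against 4.33 and 4.30. Its difference was 3.73 (SE 0.43), or 13.3-fold. AI507368 stood at 3.78 and 3.48 in brown fat against -0.26 and 0.14 in saline white fat, a difference of 3.69 (SE 0.46) or 12.9-fold. All of these but AK138758 thus had nearly the same fold between the tissues, and the saline white fat means of the 4 were 5.12% (AK138758) to 7.76% (AI507368) of the brown fat mean.

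Low levels of AK138450 were close to what negative controls gave. Its unscaled signal was 117 and 156 in saline white fat, where the 95th percentile of the negative control spots was 77.3 and 115, and 137 at day 0 of the culture, where that percentile was 148. AK138758 had 177 and 206 in saline white fat, above both percentiles. The part of background signal in these low values was not tested.

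The next comparison asked how 7 days of CL changed these transcripts in white fat. BC156060 was tested only through its level in brown fat and was not marked well above background in white fat, so 4 transcripts could be judged. By limma 0 of the 4 were called at an adjusted p under 0.05, as were 0 of all 43525 probes tested (0%), and at an unadjusted p under 0.05 stood 1 of the 4, AK138758, and 5.46% of all probes. The saline white fat arrays also entered the choice of the transcripts, so this comparison is no independent test of them. AK138758 was the clearest of the 4 that could be measured. It stood at 0.56 and 0.90 after CL, against -0.81 and -0.73 after saline, so both CL arrays lay well above both saline arrays. Its difference was 1.5 (SE 0.40, limma adjusted p = 0.625, unadjusted p = 0.0061), or 2.82-fold, the fifth highest of the 897 accession probes. The difference of AK138758 from the saline mean was 1.20 to 1.55 on CL replicate 1 and 1.5 to 1.67 on CL replicate 2 under the 5 ways of processing tried, and its adjusted p ran from 0.123 to 1 over the alternatives.

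AK138450, DV062790 and AI507368 differed between the 2 CL arrays. DV062790 stood at 4.61 and 5.48 after CL, against 4.33 and 4.30 after saline, a difference of 0.73 (SE 0.43, limma adjusted p = 0.956). AK138450 stood at -1.06 and -0.39 after CL, against -1.40 and -1.13 after saline, a difference of 0.54 (SE 0.39, limma adjusted p = 0.984). AI507368 stood at -0.09 and 1.05 after CL, against -0.26 and 0.14 after saline, a difference of 0.54 (SE 0.46, limma adjusted p = 1). CL replicate 2 was the higher array for each of the 3, and for AI507368 CL replicate 1 lay between the saline arrays. Without CL replicate 1 the differences of DV062790, AK138450 and AI507368 were 1.16, 0.88 and 1.11, and without CL replicate 2 they were 0.29, 0.21 and -0.03, so 1 array decides their size and, for AI507368, the sign. The adjusted p of these 3 ran from 0.24 to 1 over the alternatives. CL replicate 2 lay above replicate 1 for 4 of the 4 measured transcripts under each of the 5 ways of processing, and for 70.5% of all tested probes under the scaling used here. Before any scaling the order was the other way, because the 75th percentile of the array was 585 on CL replicate 1 and 235 on replicate 2.

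**Figure D2:**
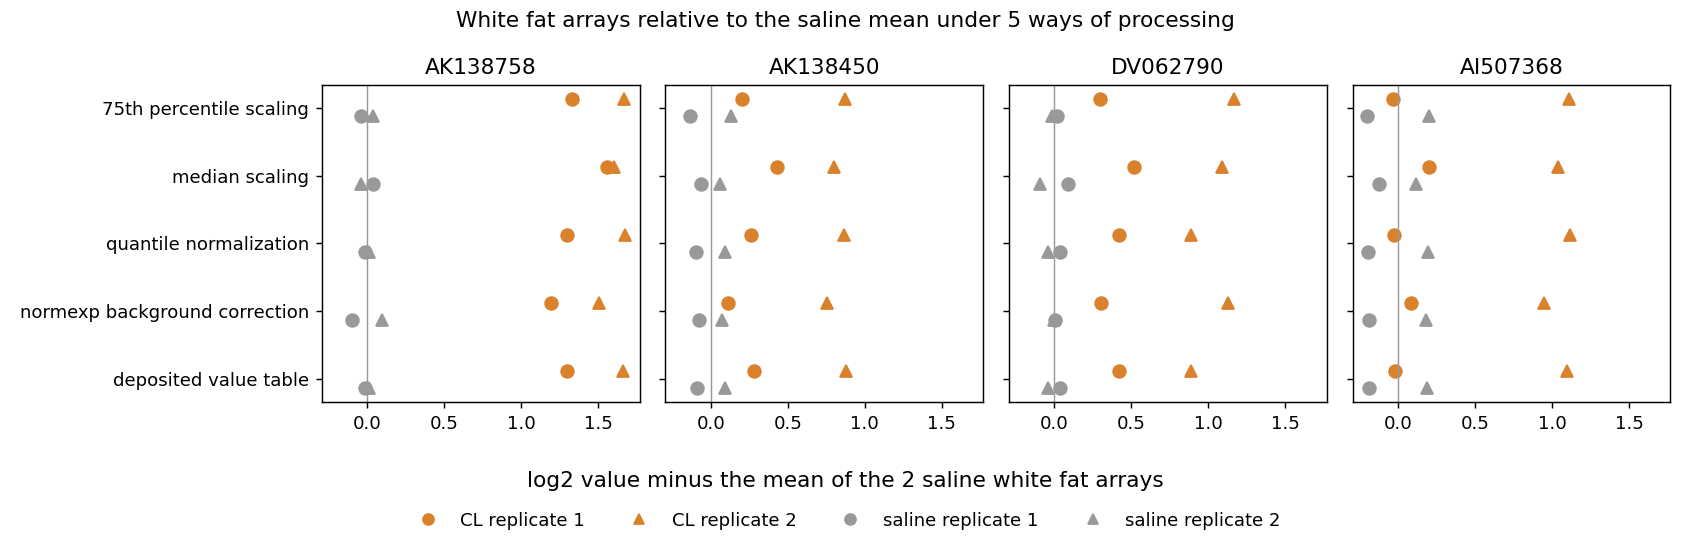
White fat arrays of the 4 measured transcripts under 5 ways of processing, as log2 value minus the mean of the saline white fat arrays of the same processing (horizontal axis). CL arrays are orange and saline arrays grey, with circles for replicate 1 and triangles for replicate 2. AK138758 keeps both CL arrays at 1.20 or more, and the other 3 have CL replicate 1 between -0.03 and 0.52.

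Both CL arrays lay above both saline arrays for AK138758, AK138450 and DV062790, 3 of the 4 measured transcripts, as for 12.6% of all tested probes, and for 4 of 4 with median scaling. The median difference of the 4 was 0.63, beside -0.08 over all tested probes and -0.11 over accession probes. It was 1.14 without CL replicate 1 (0.13 over all tested probes) and 0.25 without CL replicate 2 (-0.29 over all tested probes). BC156060 stayed below the mark of well above background on the 4 white fat arrays, at -4.68 and -3.88 after CL against -5.65 and -5.25 after saline, so no fold is given for it.

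White fat after CL was then set against saline brown fat, 2 groups that differ in tissue and in drug. Since the brown fat arrays entered the choice of the transcripts, this is a description only. Both CL arrays lay below both brown fat arrays for 5 of the 5, as for 26.8% of all tested probes. AK138758 had the smallest difference over both CL arrays. It had a mean of 0.73 ± 0.24 in CL white fat against 3.52 ± 0.52 in brown fat (SD, n = 2 each), which is 6.92-fold lower. DV062790 was 8.02-fold lower in CL white fat, at 5.04 ± 0.61 against 8.05 ± 0.44 in brown fat. AI507368 and AK138450 were 8.87-fold and 8.90-fold lower. On CL replicate 2 alone the order differed, with DV062790 5.94-fold, AI507368 5.97-fold and AK138758 6.16-fold below the brown fat mean. In CL white fat the 4 means were 11.2% to 14.5% of the brown fat mean, beside 5.12% to 7.76% in saline white fat. BC156060, at -4.28 ± 0.57 in CL white fat and 2.59 ± 0.51 in brown fat, was at least 22.5-fold lower in CL white fat with the 95th percentile of the negative control spots as the floor (73.3 with the lowest signal marked well above background, 24 with normexp).

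**Figure D3:**
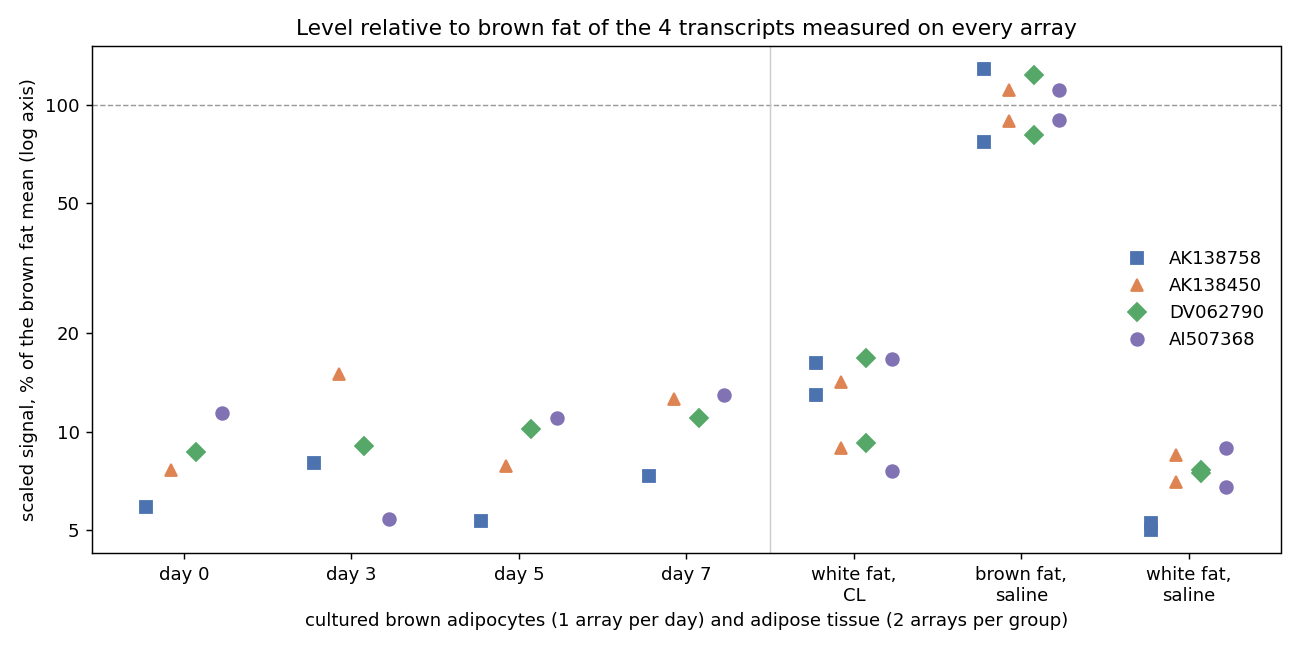
Scaled signal of the 4 transcripts measured on every array, as a percentage of their own brown fat mean (log axis), in cultured brown adipocytes by day, white fat after CL, brown fat after saline and white fat after saline. Each point is 1 array. Culture points lie at 5.33% to 15%, CL white fat at 7.59% to 16.8% and saline white fat at 4.99% to 8.91%.

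The tissue difference by which the transcripts were chosen did not use the culture arrays, but earlier results of these data were known at the choice. The culture counts are therefore no independent test, and they describe how the transcripts stood on the days of differentiation. BC156060 was at or near background on every day, which left 4 transcripts to judge. None of the 4 was at least 2-fold above day 0 on each of days 3, 5 and 7 (5.36% of all probes measured in culture were), and none was at least 2-fold below it on each day (6.2%). At day 7 0 of the 4 differed from day 0 by 2-fold in either direction, beside 21.7% of all probes. A limma linear trend over the days called 0 of the 4 at an adjusted p under 0.05 and 0% of all probes, with 0 of the 4 and 8.89% of all probes at an unadjusted p under 0.05. Slopes ran from 0.02 (SE 0.07) log2 units per day for AK138758 to 0.06 (SE 0.09) for AK138450, with limma adjusted p = 0.939 to 0.978. With 1 array per day a change smaller than the scatter around a straight line could not be seen. A change that does not follow a straight line, such as a step after day 0, adds to that scatter and could also be missed.

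DV062790 had the narrowest range of the 4 in culture. It stood at 4.52, 4.58, 4.75 and 4.86 on days 0, 3, 5 and 7, a range of 0.34. Each later day was higher with this scaling and with normexp, whereas day 7 lay below day 5 with median scaling, quantile normalization and the deposited table. AK138758 stood at -0.57, -0.12, -0.71 and -0.25, a range of 0.59 with no direction. AK138450 stood at -1.29, -0.31, -1.25 and -0.56, so days 3 and 7 were higher than days 0 and 5. Its day 3 value was 1.97-fold above day 0, where its signal (137) lay below the 95th percentile of the negative control spots (148). With normexp the day 3 minus day 0 difference of AK138450 was 0.7 on the log2 scale. AI507368 stood at 0.50, -0.59, 0.45 and 0.67, and was 2.12-fold lower on day 3 than on day 0, while the other days lay close together. On day 3 it alone of the 4 was at least 2-fold below day 0, as were 10.5% of all probes, and 0 of the 4 were at least 2-fold above, as were 10.7%. Both counts changed with the processing. The day 3 difference of AI507368 was -0.94 with median scaling and -0.92 with normexp, short of 2-fold, and that of AK138450 was 1.12, 1.08 and 1.1 with median scaling, quantile normalization and the deposited table, past 2-fold. On the day 3 array AK138450 and AI507368 thus lay on opposite sides of their day 0 values. BC156060 stood at -3.58 and -3.96 on days 0 and 3 and was not well above background on days 5 and 7 (-4.06 and -4.33). The median range over the 4 days was 0.78 for the other 4 transcripts, beside 0.90 over all probes measured in culture.

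Cultured brown adipocytes did not reach the levels of brown fat on any day. At day 7 AI507368 was 7.75-fold below the brown fat mean, AK138450 7.95-fold, DV062790 9.11-fold and AK138758 13.7-fold, and BC156060 was at least 30.1-fold below it with the negative control percentile as the floor (102 with the lowest signal marked well above background). The day 7 values of the 4 measured transcripts were 0.51 (AK138758), 0.70 (AK138450), 0.54 (DV062790) and 0.73 (AI507368) above the saline white fat mean on the log2 scale. The brown and saline white fat means in these comparisons were those that chose the transcripts, so the distances to them are descriptions. Against the CL white fat mean the day 7 differences were -0.98 for AK138758, 0.16 for AK138450, -0.18 for DV062790 and 0.19 for AI507368. The choice of the transcripts favoured brown fat as the highest group, and the share of all probes with that order was not counted. The order of the levels was brown fat first for each of the 5. For AK138758 CL white fat came next, with its lower array (0.56) above the highest culture array (-0.12). For AK138450 and AI507368 CL white fat and the culture days overlapped, as they did for DV062790 except with quantile normalization and the deposited table, where CL lay higher. Saline white fat and the culture days also overlapped for AK138450 and AI507368. For AK138758 the lowest culture array was 0.02 above the higher saline array (-0.05 with normexp), and for DV062790 0.19 above it (-0.03 with median scaling, -0.09 with quantile normalization and the deposited table).

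**Figure D4:**
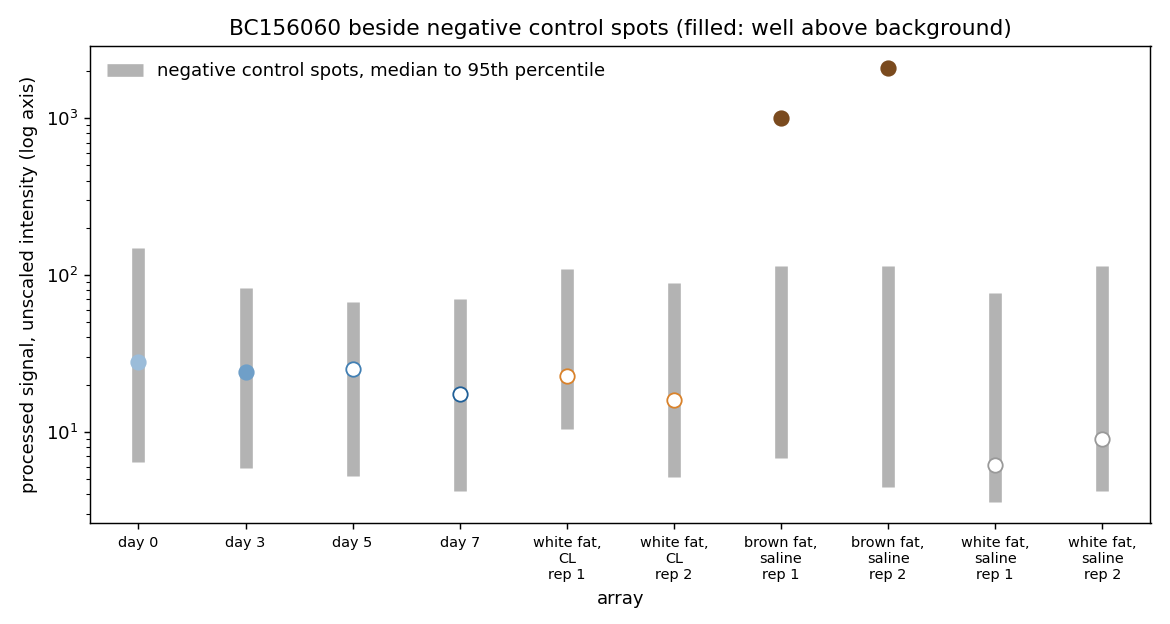
Unscaled processed signal of BC156060 on each array (log axis), with grey bars from the median to the 95th percentile of the negative control spots of the same array. Filled points were well above background. The brown fat arrays, at 1001 and 2105, lie above the grey bars, and the 8 other arrays lie within them.

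In culture the signal of BC156060 was 27.8, 24.2, 25.2 and 17.5 on days 0, 3, 5 and 7, and the 95th percentile of the negative control spots was 148, 83.1, 67.7 and 70.7. Its mark of well above background on days 0 and 3 thus belongs to signals below that percentile, on arrays where 32.3% and 36.4% of negative control spots were also marked. In CL white fat the signal was 22.8 and 16, beside negative control percentiles of 110 and 89.6.

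Across the 10 arrays the 5 transcripts followed each other closely, with Pearson's r of 0.924 to 0.977 between pairs. These values rest on the brown fat arrays. Over the 8 other arrays r ran from 0.14 (AK138450 with AI507368) to 0.742 (AK138758 with DV062790), and the arrays share slides, scans and scaling. The probes most like each transcript were looked for among 48581 probes that 2 or more arrays marked well above background, and among the 4937 of these with an accession or a lincRNA locus name. None of the 5 was among the 3 most like another in either set. BC156060 was at or near background outside brown fat, so its r is set mainly by the brown fat arrays, and a probe like it must be high there. The first was ASMM9PARTA025067 (r = 0.993, difference 7.42), and CK375612 led the named probes (r = 0.987). AK138758 was most like ASMM9PARTA033566 (r = 0.992) and, among named probes, the lincRNA locus probes MM9LINCRNAEXON11824- (r = 0.991) and MM9LINCRNAEXON10825+ (r = 0.990). The locus probe MM9LINCRNAEXON10825+ was 5.33 higher in brown than in saline white fat and 1.60 higher in CL than in saline white fat. It was picked for its r with AK138758 on arrays that include these, which favoured a like pattern, so both differences are descriptions. For AK138450 the first was ASMM9PARTA027210 (r = 0.991), and humanlincRNA0198+ and MM9LINCRNAEXON10749- led the named probes (r = 0.981 each). The locus probe MM9LINCRNAEXON10749- also led for DV062790 (r = 0.995), whose most like probe of all was ASMM9PARTA009228 (r = 0.997). AI507368 was most like ASMM9PARTA000901 (r = 0.995) and, among named probes, MM9LINCRNAEXON10560- (r = 0.992). Without the brown fat arrays these leading r values were 0.826 to 0.950 except for MM9LINCRNAEXON10749- with AK138450 (0.717). The probes were picked for their r over all 10 arrays, these 8 included, so high values were favoured and are no independent check. For BC156060 the r over these 8 arrays compares signals at or near background.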

How the data were processed

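Labelled Cy3 cRNA from total RNA was hybridised to 1-colour arrays, per the labels' protocols. The deposited scanner files hold intensity values (a processed signal, plus the median brightness of the spot and of its surround) with yes or no flags, made by the authors with Agilent Feature Extraction 11.0.1.1 per the file headers and 9.1 per the submitters' processing notes. The array design is annotated on mm9, per the file headers. A deposited table holds log2 values for 18997 probes, 4 of the 5 transcripts among them. Each of its columns matched the log2 intensity of the array it is named for (r of 0.9988 to 1), its column medians were 7.15 to 7.45, and its normalization and centring are unknown.

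With R 4.3.3 and limma 3.58.1, array control spots, 20 negative control probes and outlier spots were left out, spots of a probe were averaged on the log2 scale, and each array's 75th percentile was subtracted. There were 0 saturated spots. A tissue probe was tested when at least 1 group had it well above background on both its arrays. One model (lmFit, eBayes, group means, 3 residual and 4.46 prior degrees of freedom) covered the 6 tissue arrays, two-sided, with Benjamini-Hochberg adjustment over all 43525 probes. Culture probes (48624) were those well above background on at least 1 array, with a linear trend on the day as the test. Fits were also run on simulated data with independent noise, which held no shift shared by the probes of an array. Their outcome is not given here and supports none of the results. Median scaling, quantile normalization, normexp, the deposited table, other filters and left-out arrays were the alternatives.

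Named were the 5 transcripts, the 3 most correlated probes of each (over all probes and over named ones), Gk, and the nearest probe outside the 5. Transcripts and lists were chosen with earlier results of these data known. Of 12 long non-coding RNAs known from fat, 0 were measured under their name, and of 10 marker lists 8 had no measured gene. The arrays' number limits precision.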

Additional observations from a re-analysis of the deposited data

How the results depend on the processing

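None of the 4 measured transcripts was called between CL and saline white fat under any alternative. Over all probes the count of calls was 0, but 25 with normexp, 2 for probes well above background on all 6 tissue arrays, 1 with the replicate number as a block, and 0 to 109 when each array was left out (109 without saline white fat replicate 2, 4 without replicate 1). Whether replicate numbers pair the samples was not settled. Replicate deviations correlated at -0.0823 (CL white with brown fat), -0.0238 (brown with saline white fat) and 0.504 (CL with saline white fat). The replicate block changed no call of the 4. Brown fat stayed above saline white fat, and CL white fat below brown fat, for every one of the 5 that each alternative measured. The choice of the transcripts used the brown fat arrays and favoured that outcome, so it is a description only. With normexp the brown minus saline difference was 3.95 for AK138758 and 3.10 for AK138450. AI507368 turned to -0.03 (CL minus saline) without CL replicate 2 and was 1.11 without CL replicate 1. In culture 0 of the 4 measured were raised, lowered or called on the trend in every alternative, 1.5-fold included. Over all probes, 2602 were raised and 3014 lowered on days 3, 5 and 7, against 3347 and 2346 with median scaling, 1605 and 1568 with normexp, 1118 and 583 in the deposited table, 2037 and 1816 where all 4 culture arrays had to be well above background, and 4524 and 5727 at 1.5-fold. The trend called 0 probes, but 8 under that filter and 1938 without day 3. The median of day 7 minus day 0 over all probes was -0.13, but 0.05 with median scaling. Slopes changed sign for 3 of the 4 when a day was left out, with ranges of -0.03 (without day 0) to 0.04 for AK138758, -0.01 without day 7, of -0.06 (without day 0) to 0.09 for AK138450 and of -0.04 (without day 7) to 0.31 for AI507368, and the cause was not tested. The number of arrays, and for BC156060 and AK138450 the background, limit the low values.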
